A study of Danio rerio with 56 samples.

Results

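In whole zebrafish, 80 genes without an informative name were abundant in solvent-treated fish at 64 d, near absent from larvae and near absent from fish raised in an aromatase inhibitor. They were chosen by their own counts. Raw reads were expressed in counts-per-million units (CPM) of each library's total, and a gene was taken if its mean was at least 20 CPM in DMSO at 64 d, at most 0.5 CPM in DMSO at 16 d and at most 0.5 CPM in exemestane at 64 d. It also had to have no symbol, or one beginning with si:, zgc:, wu: or im:, which are placeholders taken from clones and cDNA collections. The 80 genes are a small part of the 32520 genes in the count table, and comprise 45 with an si: name, 20 with a zgc: name, 1 with a wu: name and 14 known by their Ensembl identifier alone. A further 63 genes met the same 3 limits, of which 61 have ordinary symbols and 2 a zmp: identifier that the rule does not list, and these are called named below. By that definition 55.9% of the genes with the pattern were unnamed, against 29.5% of all genes in the table and 8.0% of the 7050 genes at 20 CPM or more in DMSO at 64 d.

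A growing fish oocyte fills itself with messenger RNA and protein for the future embryo, builds the egg envelope around itself and takes up vitellogenin, the yolk precursor that the liver makes under oestrogen. Much of the RNA it stores is made in the oocyte alone, which is why transcripts of an ovary can be seen in RNA of a whole fish. In zebrafish the gonad first forms immature oocytes in all juveniles, and these either grow or are lost as the gonad becomes an ovary or a testis. Aromatase, which converts androgens into oestrogens, is required for the ovarian path, and exemestane is a steroid that inactivates it.

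Fish of the AB strain were sampled at 2, 8, 16, 32 and 64 d in 4 treatments, the solvent DMSO, exemestane (EM) at 10 µg/L, 17β-estradiol (E2) at 100 ng/L, and both agents together (EM+E2). Each library was made from polyadenylated RNA of a pool of 25 whole fish of unstated sex. A group had 3 libraries in most cases. At 2 d only 2 libraries of DMSO and 2 of EM+E2 were used, and at 64 d every treatment but DMSO had 2. In all, 55 libraries with 4039030 to 10144213 counted reads entered. Nothing in the labels says whether the pools within a group grew up separately, and p-values therefore measure only the spread between these libraries.

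Libraries of 2 groups stood far apart. In DMSO at 32 d, replicate 2 held 3.75% of the summed level of the 80 genes in replicate 1. In EM+E2 at 64 d, replicate 1 held 835 reads of the 80 genes and replicate 2 held 41679. The main counts that rest on these groups are given below with and without the library concerned. Test counts that leave 1 library in a group appear only within ranges in the closing section. No conclusion is drawn from them. The values of DMSO at 16 and 64 d and of EM at 64 d chose the genes, so every contrast with those libraries is given as a description and was not tested.

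**Figure D1:**
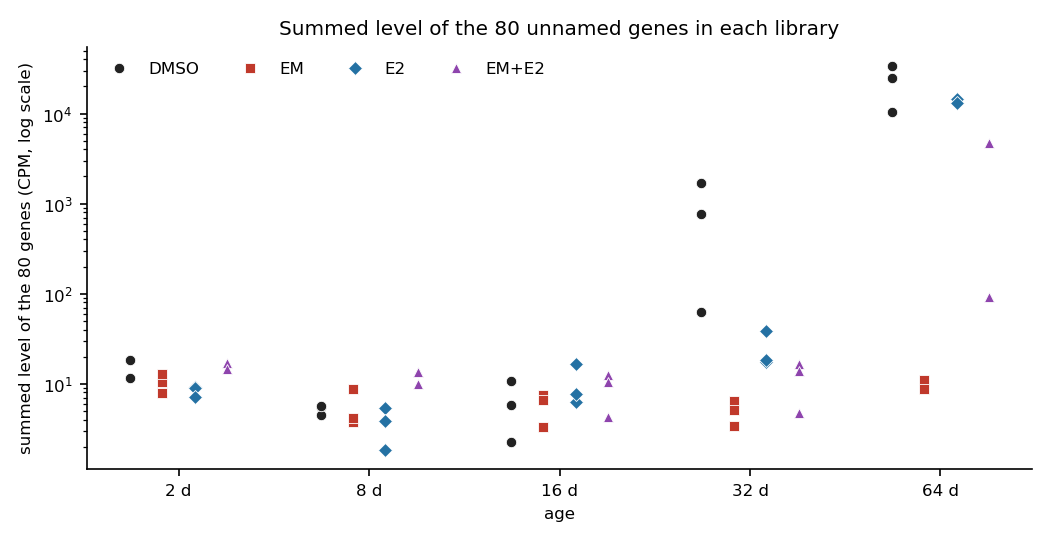
Summed level of the 80 genes (CPM, log scale) in each of the 55 libraries, by age, with the treatment shown by colour and marker. All 34 libraries of 2, 8 and 16 d lie between 1.84 and 18.2 CPM, DMSO libraries rise above 60 CPM at 32 d and to at least 10478 CPM at 64 d, and EM libraries remain at or below 11.0 CPM at both ages.

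The 80 genes together took 3.36%, 1.05% and 2.50% of all reads in DMSO replicates 1, 2 and 3 at 64 d. Their summed level was 1.84 to 18.2 CPM, with a median of 7.84 CPM, in the 34 libraries of 2, 8 and 16 d. In EM at 64 d it was 11.0 and 8.81 CPM. For DMSO at 16 and 64 d and for EM at 64 d these figures restate the selection. The other libraries of 2, 8 and 16 d were not used by it, nor was any library of 32 d. Also not used were E2 at 64 d, with 14533 and 12991 CPM, and EM+E2 at 64 d, with 91.8 and 4723.5 CPM. In a whole-body pool, fewer cells that carry a transcript and less of it per cell cannot be told apart.

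The label "growing oocyte" was set against a list of 17 oocyte genes, of which 15 were matched and 7 are themselves among the 63 named genes with the pattern. The summed oocyte list stood at 10269, 4267 and 7255.3 CPM in DMSO at 64 d and at 73.7 and 54.2 CPM in EM. In EM most of it came from sycp1, a protein of meiotic chromosome pairing that testes also use (mean 41.5 CPM), and from dazl, an RNA-binding protein of germ cells (mean 16.2 CPM). Egg envelope genes of the list were at or near 0 there, with a mean of 0 CPM for zp2.1, 0.155 CPM for zp2.2, 0.354 CPM for zp3a.2 and 0.916 CPM for zp3b. The lists of testis somatic and sperm genes stood at 47.9 and 83.6 CPM and at 25.2 and 28.1 CPM in EM at 64 d, and at 23.5 to 87.6 CPM and 21.2 to 60.1 CPM in DMSO. Most of the DMSO sums came from cyp26a1 (mean 42.9 CPM in DMSO and 8.53 CPM in EM) and spata18 (29.7 and 3.81 CPM), and these were the only genes of the 7 and 6 matched whose mean was higher in DMSO. The mean of amh was 0.614 CPM in DMSO and 13.8 CPM in EM, and that of insl3 was 0.319 and 18.7 CPM. Of 6 ovarian somatic genes only gsdf was matched, and its mean at 64 d was lower in DMSO (4.44 CPM) than in EM (15.8 CPM). Among libraries the selection did not use, the list stood at 37.8 CPM in EM+E2 replicate 1 and at 1253 CPM in replicate 2 at 64 d, where the 80 genes summed to 91.8 and 4723.5 CPM. The yolk precursor list of 7 vitellogenin genes differed less between these libraries, at 1145 and 2500 CPM. No library holds separated oocytes, so the data show a pattern over whole fish and not the cell in which the genes are transcribed.

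The names show that many of the genes lie close together. Genes called after the same clone are pieces of the same stretch of DNA, and 10 clones carried 2 or more of the genes, 24 of the 45 si: genes in all. In the RefSeq table of assembly GRCz12tu, used only for names and order, 48 of the 80 were matched to a protein-coding entry and 1 more to a long non-coding RNA. Of the 48, 27 (56.3%) had another of the genes within 10 protein-coding genes, in 8 runs. The same count was 12 of 57 (21.1%) for the named genes with the pattern, and 153 of 6200 (2.47%) other genes at 20 CPM or more in DMSO at 64 d had one of the 80 within that distance. Genes that lie side by side are often copies of each other, and reads of close copies may have been divided among them.

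The longest run held 7 of the genes within 8 consecutive protein-coding genes. It comprised si:ch211-145c1.1, si:dkey-90l23.2, si:dkey-90l23.1, si:ch1073-75o15.4, zgc:171776, si:ch1073-75o15.3 and zgc:153499. The RefSeq table lists LRBL as a synonym of zgc:171776. Along this run the mean in E2 at 64 d was 30.7 to 46.4% of the same gene's DMSO mean, where the middle of all 80 genes was 34.3 to 57.7%. At 32 d their shares of the 64 d mean ran from 0.442% for si:ch1073-75o15.4 to 5.67% for si:ch1073-75o15.3. The second run held 6 genes within 20, si:dkey-240e12.6, si:ch211-12h2.6, si:ch211-12h2.8, si:dkeyp-98a7.7 and si:dkeyp-98a7.8 among them, at 19.0 to 44.0% of DMSO in E2. A pair in a run of its own, si:ch1073-263o8.2 and si:ch211-263m18.4, differed from both runs in that E2 exceeded DMSO, as described below. For wu:fi09b08 and zgc:173837, also a pair, the E2 means were 0.832% and 86.9% of DMSO, so neighbours did not always move together.

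In DMSO at 32 d all 80 genes had reads, 73 of them at a mean over 0.5 CPM. Only some libraries carried the 80 genes in quantity. Their summed level in DMSO at 32 d was 1690, 63.4 and 776 CPM in replicates 1, 2 and 3. Replicate 2 was the lowest of the 3 for 72 of the 80 genes, and the order 1 over 3 over 2 held for 58. The list of oocyte genes had the same order, at 514, 63.2 and 229 CPM, while the vitellogenins stood at 772, 2.32 and 1.33 CPM. Replicate 3 thus held the genes in quantity with next to no yolk precursor. The part of the marker genes' cells in these differences was not tested.

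All 80 genes had a higher mean in DMSO at 32 d than at 16 d, where the selection held it low, and 65 reached 1 CPM. Every DMSO library of 64 d exceeded every one of 32 d for 72 of them, against 16.0% of all genes with a read in those libraries, a contrast that the selection used. Relative to each gene's own mean at 64 d, the median at 32 d was 2.82%, with a range of 0.031 to 19.3%. The 63 named genes with the pattern had a median of 3.02%. Without DMSO replicate 2 of 32 d the median over the 80 was 3.96% and 69 reached 1 CPM. Without replicate 1 it was 1.73% and 55 did, and without replicate 3 it was 2.80% and 61 did.

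Only 3 of the 80 had reached 10% of their 64 d mean, which became 6 without replicate 2, 0 without replicate 1 and 5 without replicate 3. ENSDARG00000116512 stood at 92.8, 5.05 and 17.8 CPM at 32 d and at 99.1, 481 and 20.9 CPM at 64 d. It was the furthest advanced at 32 d (19.3%), yet its 64 d libraries alone spanned 20.9 to 481 CPM. Next came si:ch211-263m18.4 at 12.3%, with 65.2, 0.137 and 16.6 CPM at 32 d and 158, 244 and 264 CPM at 64 d. The third was si:dkeyp-57a10.2 at 10.4%, with 4.83, 0.546 and 1.77 CPM at 32 d. Just below them, si:ch1073-263o8.2 (9.76%) stood at 342, 2.73 and 64.6 CPM and zgc:173544 (6.92%) at 7.20, 0.410 and 7.76 CPM.

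At the other end, 6 of the 80 were at or below 1% of their 64 d mean at 32 d, and 17 were so without replicate 1. The lowest, zgc:175135, had 0.514, 0 and 0 CPM at 32 d and 479, 0.531 and 1181 CPM at 64 d. For wu:fi09b08 the values were 0, 0 and 0.443 CPM at 32 d, and 345, 2.02 and 1.93 CPM at 64 d. Both also differed strongly among DMSO libraries of 64 d, so that their share rests on those that were high. The gene si:dkeyp-46h3.3 had 0.514, 0.820 and 8.09 CPM at 32 d and 373, 214 and 1063 CPM at 64 d, with replicate 3 high at both ages. Replicates of different ages are different fish and are not paired.

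**Figure D2:**
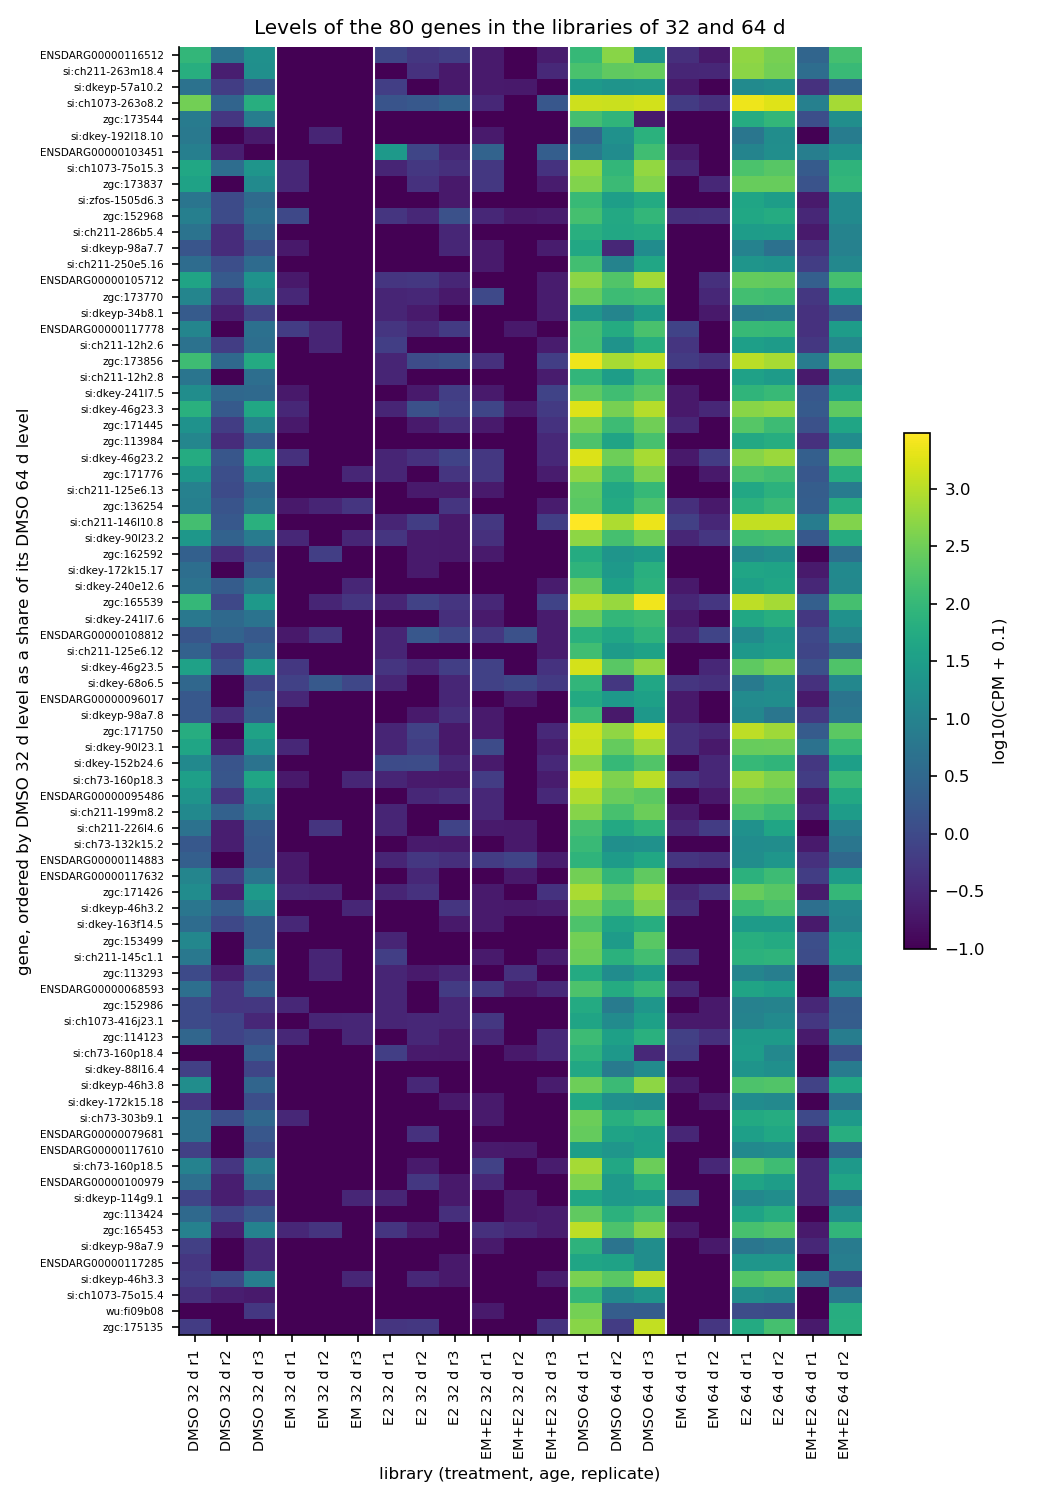
Level of each of the 80 genes as log10(CPM + 0.1) in the 21 libraries of 32 and 64 d, with genes ordered by their DMSO mean at 32 d as a share of that at 64 d, ENSDARG00000116512 at the top and zgc:175135 at the bottom. DMSO replicates 1 and 3 at 32 d are visibly above replicate 2, E2 at 64 d is filled almost throughout, and EM+E2 at 64 d is dark in replicate 1 and bright in replicate 2.

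The genes were low in each of the other treatments at 32 d. Summed levels were 6.45, 5.13 and 3.37 CPM in EM, 38.7, 17.5 and 18.1 CPM in E2, and 16.6, 4.78 and 13.9 CPM in EM+E2. In E2 replicate 1, 25.6 of the 38.7 CPM came from ENSDARG00000103451 alone. Every DMSO library exceeded every EM library for 51 of the 80 genes, against 2.19% of all genes with a read in those libraries. The same held for 43 of 80 against E2, where it was 3.97% of all genes, and for 48 of 80 against EM+E2, where it was 3.05%. No gene of the 80 was above DMSO in every library of another treatment. The 3 comparisons share the DMSO libraries, of which replicate 2 was the lowest for 72 of the 80. Without replicate 2 the counts were 74, 75 and 74 of 80, and the shares of all genes 7.7%, 26.7% and 10.2%.

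With edgeR's quasi-likelihood test, p-values being adjusted after Benjamini-Hochberg across every gene in the fit, 12 of the 80 were lower in EM than in DMSO at 32 d, and 0.217% of the 21242 genes tested were lower. In EM+E2 against DMSO it was 13 of the 80 lower, with 0.24% of all genes. In E2 against DMSO it was 0 of the 80 and 0.0% of all genes, although 18 of the 80 and 1817 of all genes had an unadjusted p under 0.05. DESeq2 called 15 of the 80. The share of all genes called by DESeq2 is not given, here or below, so its counts show only that calling depended on the tool. In each of these comparisons 20 of the 80 passed the filter on low counts, most of them through DMSO alone. The other 60 were not tested. Of the 20, ENSDARG00000103451 passed through E2 and EM+E2 libraries, with 8.64, 0.137 and 0 CPM in DMSO. For zgc:152968, at 0.956 CPM in DMSO replicate 2, E2 replicate 3 at 1.18 CPM was needed. For most genes the filter thereby favoured calls in the direction of a higher DMSO level. The share of all genes therefore gives the scale of calling, and the counts are no independent evidence of that direction.

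These counts depended on single libraries. Without DMSO replicate 2 they became 32 for EM, 32 for E2 and 37 for EM+E2. The low-count filter was applied anew in each refit, and these counts exceed the number of the 80 that the main fit tested. Without DMSO replicate 1 they were 1, 0 and 2, and without replicate 3 they were 3, 0 and 3. Without any 1 of the EM libraries, or of the EM+E2 libraries, the count for that treatment was 0. The shares of all genes called in these refits are not given, so the counts show only that calling depended on the libraries. Without DMSO replicate 2 the share of all genes with every DMSO library above every E2 library rose from 3.97% to 26.7%. Vitellogenins moved differently from the genes across these groups, at 1.80, 1.52 and 7.92 CPM in EM, 2545, 206 and 150 CPM in E2 and 365, 53.0 and 188 CPM in EM+E2. E2 fish of 32 d thus had more yolk precursor RNA than DMSO replicates 2 and 3, with a lower sum of the 80 genes than any DMSO library.

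The gene si:ch1073-75o15.3 stood at 45.9, 3.96 and 21.4 CPM in DMSO, and at 0.212, 0 and 0 CPM in EM, from 2 reads. It was 253-fold lower in EM over pooled reads (95% exact counting interval 69.8 to 2095; adjusted p = 0.0155). In EM+E2, at 0.429, 0 and 0.350 CPM, it was 99.9-fold lower (48.2 to 250; adjusted p = 0.0225). In E2, at 0.192, 0.439 and 0.296 CPM, the ratio was 78.3 (39.5 to 182) and did not pass (adjusted p = 0.0867). All 9 libraries of the 3 treatments were below all 3 DMSO libraries.

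ENSDARG00000105712 stood at 41.7, 1.78 and 19.4 CPM in DMSO and had 1 read in EM, a ratio of 450 (80.4 to 17787; adjusted p = 0.0162). It also had 1 read in EM+E2, a ratio of 621 (111 to 24568; adjusted p = 0.0166). In E2 it stood at 0.385, 0.439 and 0.197 CPM. The DMSO libraries did not overlap any other treatment.

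ENSDARG00000116512, the gene furthest advanced in DMSO, had no read in EM and was at least 278-fold lower there, with a floor of 3 reads over the group (adjusted p = 0.0179). In EM+E2 it had 2 reads, a ratio of 576 (159 to 4762; adjusted p = 0.0225). E2 libraries held 0.770, 0.439 and 0.591 CPM, below the lowest DMSO library at 5.05 CPM. For si:ch73-160p18.3, with 34.1, 1.5 and 43.7 CPM in DMSO, the ratio was 279 in EM (77.1 to 2311; adjusted p = 0.0226) and 129 in EM+E2 (58.8 to 352; adjusted p = 0.0289). For si:dkey-46g23.3, with 69.2, 1.78 and 47.5 CPM in DMSO, it was 423 in EM (117 to 3494; adjusted p = 0.0226). Not all genes with a large ratio passed. For si:ch1073-263o8.2, with no read in EM and 342, 2.73 and 64.6 CPM in DMSO, the level was at least 993-fold lower and the adjusted p was 0.0675.

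**Figure D3:**
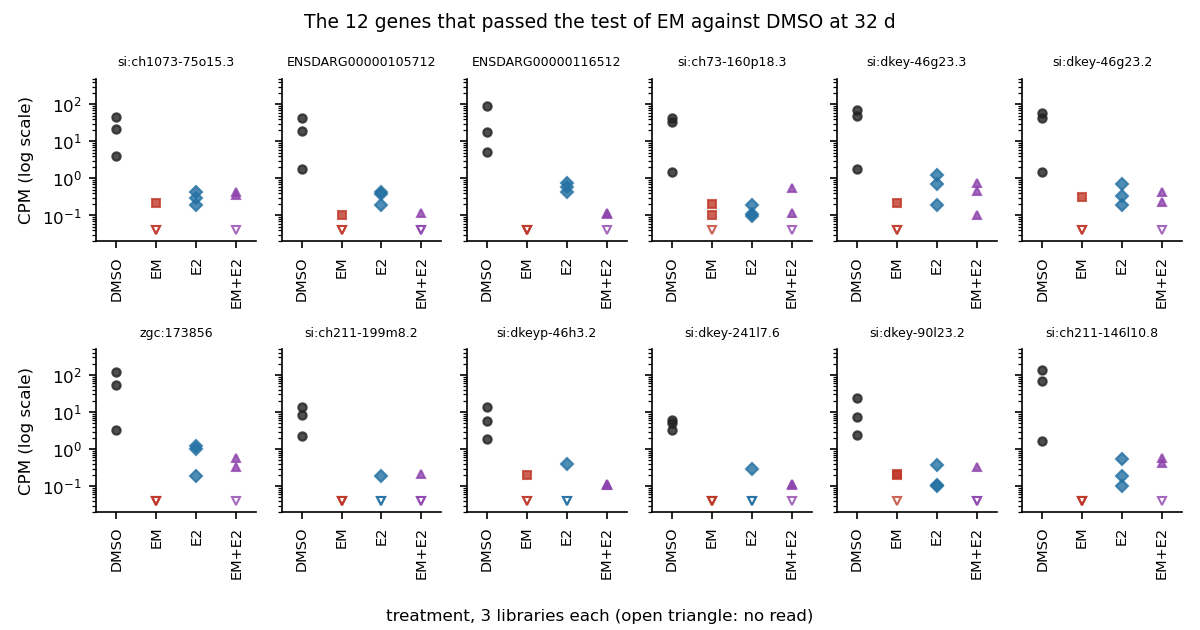
CPM (log scale) at 32 d of the 12 genes that passed the test of EM against DMSO, with 3 libraries per treatment and an open triangle for no read. The lowest DMSO library lies above all libraries of the other treatments in each panel, and EM points are few because most EM libraries had no read of these genes.

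The treated groups were compared with each other at 32 d. Means in E2 were above means in EM for 62 of the 80 genes, and every E2 library exceeded every EM library for 10 of 80, against 1.8% of all genes with a read. Adding E2 to EM gave 0 calls among the 80, with 0.0% of all genes called, 0 of the 80 and 615 of all genes at an unadjusted p under 0.05, and 0 of the 80 by DESeq2. EM+E2 against E2 also gave 0, with 0.0% of all genes and 0 by DESeq2. An unadjusted p under 0.05 was reached by 3 of the 80, of which 20 were tested, and by 2321 of 21242 genes. The interaction of the agents gave 0 of 80 and 0.0% of all genes. An unadjusted p under 0.05 was reached by 15 of the 80 and 1613 of all genes, and DESeq2 called 10 of the 80 (share of all genes not given). Each of these tests covered 20 of the 80, most of which passed the filter through DMSO. DMSO enters the interaction with a plus sign, so the filter favoured a positive interaction and its sign is no independent evidence. With 72 to 79 of the 80 at a mean of at most 0.5 CPM in each of these groups, differences between them were hardly detectable at this depth.

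In E2 the genes came up between 32 and 64 d, in libraries that played no part in their selection. Every E2 library of 64 d exceeded every one of 32 d for 79 of the 80 genes, against 29.2% of all genes with a read. By edgeR 66 of the 80 were higher at 64 d, and 1.11% of the 22469 genes tested were. The 79 of the 80 that passed the filter did so with a median level of 53.8 CPM over the 80 in E2 at 64 d and of 0.132 CPM at 32 d, that is, largely through the group where they were high, so the direction of a call was not independent of the filter. A lone E2 library of 64 d holds no spread of its own. No conclusion is therefore drawn from test counts without replicate 1 or 2 of 64 d. Between 16 and 32 d in E2, 9 of the 80 separated upwards (4.25% of all genes) and 0 passed the test (0.0401% of all genes passed upwards). An unadjusted p under 0.05 in either direction was reached by 20 of the 80 and 1956 of the 22469 genes, and DESeq2 called 0. The 20 included si:dkey-68o6.5, which was lower at 32 d (log2 fold change -4.65 ± 1.46 SE). Entry to this test was by the same filter, largely through E2 at 64 d, which is outside the contrast. Most of the 80 had few reads at 16 and 32 d.

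The 4 genes with the smallest p went from under 1 CPM to over 200 CPM in every E2 library. For si:dkey-46g23.5 the levels were 0.385, 0.219 and 0.591 CPM at 32 d and 230 and 350 CPM at 64 d, a log2 fold change of 9.12 ± 0.77 (SE; adjusted p = 0.000151). For zgc:165539 they were 0.192, 0.658 and 0.394 CPM and then 1080 and 742 CPM, a log2 fold change of 10.63 ± 1.00 (adjusted p = 0.000151). For ENSDARG00000095486, with 0, 0.219 and 0.296 CPM followed by 312 and 269 CPM, it was 10.12 ± 0.81 (adjusted p = 0.000151). For ENSDARG00000116512, at 541 and 367 CPM at 64 d, it was 9.24 ± 0.84 (adjusted p = 0.000192). In none of these did the libraries of the 2 ages come near each other.

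At 64 d, E2 fish carried most of the genes at somewhat less than the DMSO level. The E2 mean was below the DMSO mean for 76 of the 80 and above it for 4, with a median of 42.4% of DMSO and 43.8% for the named genes with the pattern. The 2 E2 libraries resembled each other, and replicate 1 was above replicate 2 for 36 of the 80. Both lay below all DMSO libraries for 23 genes (13.8% of all genes with a read did) and above all of them for 2 (22.9% of all genes did), while 55 overlapped the DMSO range. DMSO at 64 d chose the genes by a high level, so the lower value in E2 is not independent of the choice and was not tested.

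The 4 genes above the DMSO mean in E2 had 32 d shares of 6.92 to 19.3%. Other genes with such shares were below DMSO in E2, si:dkeyp-57a10.2 (10.4% at 32 d) at 65.3% and si:dkey-192l18.10 (also 6.92% at 32 d) at 33.9%. Both shares are taken against the DMSO libraries of 64 d that chose the genes. ENSDARG00000116512 stood at 541 and 367 CPM in E2, 227% of its DMSO mean, and overlapped the DMSO range of 20.9 to 481 CPM. For si:ch211-263m18.4, at 500 and 338 CPM, it was 189%, and both libraries exceeded the 158 to 264 CPM of DMSO. For its neighbour si:ch1073-263o8.2, at 2369 and 1822 CPM, it was 150%, against 1371, 1313 and 1512 CPM in DMSO. These neighbours were the 2 genes above all DMSO libraries. The fourth, zgc:173544, stood at 59.6 and 91.0 CPM against 137, 85.4 and 0.113 CPM.

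The lowest shares in E2 belonged to genes that were uneven in DMSO. The share was 0.832% for wu:fi09b08, at 1.01 and 0.923 CPM, below DMSO replicates 2 and 3 at 2.02 and 1.93 CPM and far below replicate 1 at 345 CPM. It was 18.0% for zgc:175135, at 55.7 and 144 CPM, and 19.0% for si:dkeyp-98a7.8, at 11.5 and 5.64 CPM. It was 19.0% for si:dkeyp-98a7.9, at 5.67 and 7.08 CPM, next to 79.6, 5.21 and 15.6 CPM in DMSO. ENSDARG00000100979 followed at 21.1%, with 41.5 and 31.1 CPM against 402, 27.0 and 87.0 CPM in DMSO.

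**Figure D4:**
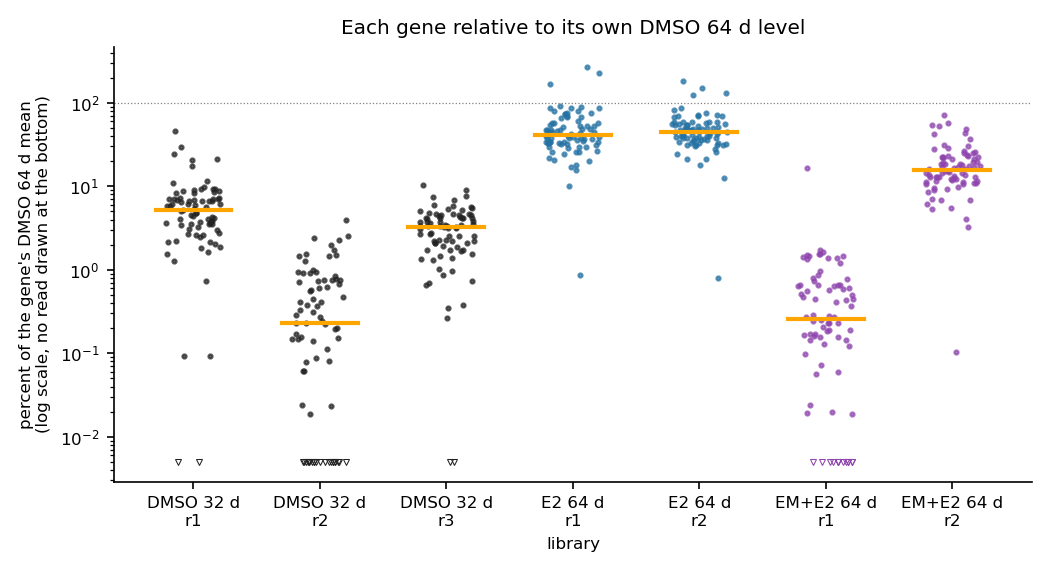
Each of the 80 genes as a percent of its own DMSO mean at 64 d (log scale) in the libraries of DMSO at 32 d, E2 at 64 d and EM+E2 at 64 d, with each library's median as a bar and genes without a read as open triangles at the bottom. The bars of EM+E2 replicates 1 and 2 are at 0.260% and 15.6%. Medians over the 80 genes of the group means, which are not drawn, are 2.82% for DMSO at 32 d and 42.4% for E2.

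The 2 libraries of EM+E2 at 64 d gave different pictures of nearly every gene. Replicate 2 exceeded replicate 1 for 79 of the 80. In replicate 1, 13 of the 80 had no read and 25 reached 1 CPM, and the median was 0.260% of the DMSO mean. In replicate 2, 79 of the 80 reached 1 CPM and the median was 15.6%. The ratio of replicate 2 to replicate 1 had a median of 41.5 over the 80 genes, with genes that had no read in replicate 1 set at 3 reads. Named genes with the pattern had medians of 0.504% and 14.6%.

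The sums of the germ cell and yolk precursor lists were higher in replicate 2 too. Most testis somatic and sperm genes were lower there, many of them at under 2 CPM in both libraries, where a difference could hardly be seen. For cyp26a1, whose mean at 64 d was higher in DMSO than in EM, replicates 1 and 2 held 20.8 and 20.7 CPM. The levels were 11.5 and 7.59 CPM for star, 4.07 and 2.72 CPM for spata18, and 1.43 and 0.567 CPM for hsd17b3. Slightly higher in replicate 2 were amh, at 0.989 and 1.02 CPM, spag6, at 1.76 and 2.15 CPM, and rsph9, at 0.879 and 1.13 CPM. The germ cell list of 8 genes stood at 19.1 and 194 CPM, with no gene at 0 reads in replicate 1, and the vitellogenins at 1145 and 2500 CPM. Most of the vitellogenin difference came from vtg1, at 704 and 1905 CPM. Slightly lower in replicate 2 were vtg3 (162 and 160 CPM) and vtg6 (15.5 and 14.4 CPM), and the other vitellogenins were higher there. Counted reads per library did not differ in that way, with 835 reads of the 80 genes against 41679 at similar totals. The part of the marker genes' cells in the difference was not tested.

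Replicate 2 was below both E2 libraries for 70 of the 80 genes, and replicate 1 was below both for all 80, so that EM+E2 lay below E2 in full for 70, against 24.0% of all genes with a read. The edgeR test of EM+E2 against E2 called 0 of the 80, with 0.0% of the 20247 genes tested. An unadjusted p under 0.05 was reached by 19 of the 80 and 3002 of all genes. DESeq2 called 9 of the 80 lower (share of all genes not given). Replicate 2 alone was below both E2 libraries for 70 of the 80 (33.6% of all genes), and replicate 1 alone for 80 (36.7%). A lone EM+E2 library holds no spread of its own. No conclusion is therefore drawn from test counts without replicate 1 or 2. Against EM at 64 d, which the selection held low, EM+E2 libraries were both higher for 58 of 80 (16.0% of all genes), and replicate 2 by itself was higher for 80 (36.8%). Against DMSO at 64 d, which it held high, both were lower for 64 of 80 (20.8% of all genes).

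The ratio between the 2 libraries was 889 for zgc:171426, 798 for zgc:165453, 590 for zgc:175135 and 587 for ENSDARG00000079681. Each had 1 read in replicate 1, while in replicate 2 they had 862, 774, 572 and 569 reads. The counting intervals of these ratios reached from 159, 143, 105 and 105 upwards, so that the order among the 4 is not resolved. The gene wu:fi09b08 had no read in replicate 1 and 62.8 CPM in replicate 2, far above its 1.01 and 0.923 CPM in E2.

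Against the general direction, si:dkeyp-46h3.3 was lower in replicate 2. It had 33 reads in replicate 1 and 5 in replicate 2, 3.63 and 0.567 CPM, a ratio of 0.156 (95% exact counting interval 0.0476 to 0.403). E2 libraries held 193 and 258 CPM of it. Its neighbour si:dkeyp-46h3.2 stood at 4.18 and 12.4 CPM, a ratio of 2.96 (2.03 to 4.40), with 102 and 150 CPM in E2. The third gene of that run, si:dkeyp-46h3.8, stood at 0.660 and 46.6 CPM. The first 2 had the smallest p of the 80 in EM+E2 against E2, with log2 fold changes of -6.65 ± 0.79 and -3.88 ± 0.52 (SE; adjusted p = 0.208 for both).

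From 32 to 64 d in EM+E2, every later library exceeded every earlier one for 56 of the 80 genes, against 10.1% of all genes with a read. Without replicate 1 of 64 d it was 80 (23.4% of all genes), and without replicate 2 it was 56 (19.6%). By edgeR 19 of the 80 were higher, as were 0.402% of 21916 genes. The filter was passed by 31 of the 80, most of them through the libraries of 64 d alone. Others, wu:fi09b08 among them, passed with a library of an earlier age. Without any 1 library of 32 d the count was 1 or 2. A lone library of 64 d holds no spread of its own. No conclusion is therefore drawn from test counts without replicate 1 or 2 of 64 d. The smallest p belonged to si:dkeyp-46h3.2, with 0.107, 0.106 and 0.117 CPM at 32 d, 3 reads in all, and a pooled ratio of 74.6 (25.0 to 366; adjusted p = 0.00747). For zgc:173856, at 0.322, 0 and 0.584 CPM and then 7.15 and 327 CPM, the ratio was 562 (285 to 1303; adjusted p = 0.0119). For si:ch211-263m18.4, at 3.85 and 107 CPM at 64 d, it was 497 (170 to 2415; adjusted p = 0.0122). Libraries of 64 d did not overlap those of 32 d for any of these 3, though replicate 1 rose far less than replicate 2.

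In EM the genes stayed low from 16 to 32 d. In EM at 32 d 40 of the 80 had no read in any of 3 libraries, and 79 had a mean of at most 0.5 CPM. The exception was si:dkey-68o6.5, with 0.635, 1.71 and 0.792 CPM at 32 d and 1.98, 0.986 and 0 CPM at 16 d, which overlap. It was the only gene of the 80 to pass the filter, and its log2 fold change was 0.16 ± 1.14 (SE; adjusted p = 0.981). No gene of the 80 was called by edgeR, 0 of the 80 had an unadjusted p under 0.05 and DESeq2 called 0, while 0.127% of the 21209 genes tested were higher. The sign for si:dkey-68o6.5 depended on the libraries, with -0.40 without EM replicate 3 of 16 d and -0.43 without EM replicate 2 of 32 d.

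The 10 genes with the most reads in DMSO at 64 d took 51.6% of all reads of the 80, not adjusted for transcript length. They were si:ch211-146l10.8, zgc:173856, si:ch1073-263o8.2, zgc:165539, zgc:171750, si:dkey-46g23.3, si:ch73-160p18.3, si:dkey-46g23.2, si:dkey-46g23.5 and si:dkey-90l23.1. At 64 d si:ch211-146l10.8 stood at 3030, 839 and 2251 CPM in DMSO, 1167 and 1185 CPM in E2, and 7.48 and 428 CPM in EM+E2. Its neighbour zgc:173856 stood at 2378, 775 and 1136 CPM in DMSO, and at 1038 and 800 CPM in E2. For zgc:171750, the third of that run, the values were 1416, 543 and 1601 CPM in DMSO and 1096 and 697 CPM in E2. In the 3 genes DMSO replicate 2 was the lowest, as it was for 69 of the 80, and the E2 libraries lay inside the DMSO range.

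The 3 genes of the clone si:dkey-46g23 were also highest in DMSO replicate 1 at 64 d. The levels were 1777, 363 and 958 CPM for si:dkey-46g23.3, 1754, 316 and 797 CPM for si:dkey-46g23.2 and 1568, 214 and 546 CPM for si:dkey-46g23.5. In EM+E2 replicate 2 the same 3 held 236, 268 and 175 CPM, and in replicate 1 they held 1.76, 2.2 and 1.21 CPM. These genes thus kept one order of libraries, DMSO replicates 1, 3 and 2, in common with 56 of the 80.

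Across the DMSO libraries of 64 d, the highest was at most 5 times the lowest for 53 of the 80 genes, with a median ratio of 3.96, and over 10 times for 15. For 6 genes a DMSO library was below 1 CPM, although the mean was above 20 CPM. In replicate 2 these were zgc:175135 (479, 0.531 and 1181 CPM in replicates 1, 2 and 3), si:dkeyp-98a7.8 (111, 0.106 and 24.2 CPM), si:dkeyp-98a7.7 (49.4, 0.213 and 15.0 CPM) and si:dkey-68o6.5 (87.7, 0.425 and 45.0 CPM). In replicate 3 they were zgc:173544 (137, 85.4 and 0.113 CPM) and si:ch73-160p18.4 (79.4, 24.9 and 0.227 CPM). Other genes of the 80 were well represented in the same libraries, since replicate 2 held 76 and replicate 3 held 78 of the 80 at 1 CPM or more. Both E2 libraries carried all 6 genes, at 4.61 to 144 CPM.

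**Figure D5:**
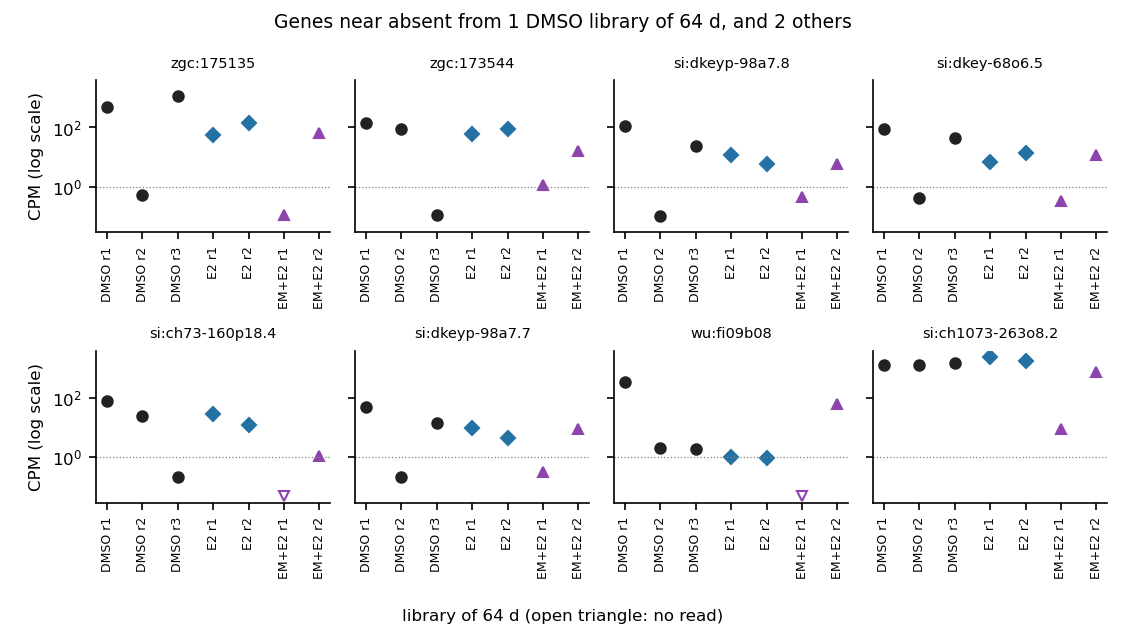
CPM (log scale) in the 7 DMSO, E2 and EM+E2 libraries of 64 d for the 6 genes below 1 CPM in a DMSO library, for wu:fi09b08 and for si:ch1073-263o8.2, with a dotted line at 1 CPM and an open triangle for no read. In the first 6 panels 1 DMSO point lies below the line while both E2 points lie above it, and si:ch1073-263o8.2 is even in DMSO, at 1313 to 1512 CPM.

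Replicate 1 was the lowest DMSO library of 64 d for 3 of the 80, ENSDARG00000103451, si:dkey-192l18.10 and si:ch211-263m18.4. For si:dkey-192l18.10, which RefSeq lists as a long non-coding RNA, the levels were 2.76, 18.4 and 74.2 CPM at 64 d and 6.48, 0 and 0.111 CPM at 32 d in DMSO. ENSDARG00000103451 stood at 6.48, 14.8 and 128 CPM in DMSO at 64 d, with replicate 1 the lowest where most genes had it highest, and the vitellogenin list had that same order, at 453, 2362 and 14681 CPM. At 32 d it stood at 8.64, 0.137 and 0 CPM in DMSO, beside vitellogenins at 772, 2.32 and 1.33 CPM. In E2 at 32 d it stood at 25.6, 0.768 and 0.197 CPM, beside 2545, 206 and 150 CPM of vitellogenin. ENSDARG00000103451 was thus highest and lowest in the same libraries as the yolk precursors in these 3 groups. The order at 64 d was not particular to it, since si:dkey-192l18.10 and si:ch211-263m18.4 (158, 244 and 264 CPM) shared it. In E2 at 32 d, si:dkey-192l18.10 had no read and si:ch211-263m18.4 stood at 0, 0.329 and 0.0986 CPM, unlike the vitellogenins. In EM+E2 at 64 d ENSDARG00000103451 stood at 8.24 and 18.5 CPM, a ratio of 2.24 (1.69 to 2.99), where most genes differed far more. In E2 it did not pass the test from 32 to 64 d (log2 fold change 0.29 ± 1.58 SE; adjusted p = 0.973), and it was the 1 gene of the 80 whose E2 libraries overlapped between these ages. The files give it no name, and its resemblance to the yolk precursors was noticed after its values were seen.

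Embryos of 2 d held little RNA of the genes. No library is younger, so what the eggs had held was not measured. In DMSO at 2 d, 74 of the 80 had a mean of at most 0.5 CPM and 28 had no read. The same limit was met by 52 of the 63 named genes with the pattern and by 338 of the 7050 genes (4.79%) at 20 CPM or more in DMSO at 64 d. The 338 include the genes with the pattern that met it. Unlike the 7050, the 80 and the 63 were chosen for a low level in larvae of 16 d, so these shares are not compared like with like. The highest was si:dkey-68o6.5, at 1.04 and 2.14 CPM, which was also seen in E2 at 16 d, at 0, 5.91 and 6.73 CPM. Next were zgc:171426, at 2.67 and 0.322 CPM, and si:ch1073-416j23.1, at 1.74 and 0.429 CPM. The 2 libraries of 2 d did not rank the genes alike.

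From 2 to 8 d, 46 of the 80 had a lower mean, and every library of 2 d exceeded every one of 8 d for 17 of 80, against 18.9% of all genes with a read. By edgeR 61 of the 80 were tested and 0 were called, where 8.63% of the 21154 genes tested were lower. Several of the 61 had no read at either age. An unadjusted p under 0.05 was reached by 9 of the 80 and 6967 of all genes, and DESeq2 called 3 of the 80 (share of all genes not given). The smallest p belonged to si:ch73-303b9.1 and si:ch211-199m8.2 (adjusted p = 0.0588 and 0.0755), with 5 and 7 reads over the 2 libraries of 2 d and none at 8 d. With so few reads a fall after 2 d was not detectable gene by gene.

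The values nearest the limits are given here as a description. Just above 20 CPM in DMSO at 64 d were si:dkeyp-34b8.1 at 20.1, si:dkeyp-98a7.7 at 21.5 and si:dkeyp-57a10.2 at 23.0 CPM, and just under it si:dkey-172k15.14 at 19.4, zgc:171699 at 18.9 and si:dkey-88l16.5 at 18.9 CPM. At the limit in DMSO at 16 d, si:ch1073-263o8.2 was inside at 0.350 CPM, while zgc:173556, with a DMSO mean of 2019 CPM at 64 d, was outside at 0.805 CPM. At the limit in EM at 64 d, ENSDARG00000108812 was inside at 0.467 CPM and wu:fi42e03, with a DMSO mean of 2406 CPM at 64 d, was outside at 0.567 CPM.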

How the data were processed

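The authors deposited raw read counts per Ensembl gene for 56 libraries, and a second table with a normalized signal, counts divided by 1 factor per library. Per the submitters' processing notes the build was GRCz11 and the tools included HISAT2 2.0.5 and HTSeq 0.9.1; counting options are not given in the sources used here. The deposited signal returned whole reads within 0.01 (100.0% of values; not claimed for DMSO 64 d replicate 3), and the recovered reads served as an alternative. Among the raw columns, 2 hold identical values, those named for EM+E2 replicate 3 at 16 d and replicate 2 at 2 d; the latter was dropped. Replicate numbers are those in brackets in the titles; the unbracketed ones disagree for EM+E2 at 64 d and EM at 8 and 16 d.

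Symbols came from a supplied table by Ensembl identifier. The 80 genes, the lists and the comparisons were chosen with earlier results of these data known. Tests used edgeR 4.0.16 under R 4.3.3 on the counts (filterByExpr with a minimum count of 10 and total of 15, TMM, quasi-likelihood F test, adjusted p under 0.05 over all genes of the fit) in 12 comparisons. Fits were 1 for the 4 treatments of 32 d, 1 for E2 and EM+E2 at 64 d, and 1 per treatment across ages without the libraries of the selection. Alternatives were DESeq2 1.42.0, RLE scaling, other filters, recovered reads, a replicate block, wider fits and leaving out each library. Leaving out libraries of DMSO 32 d and EM+E2 64 d from the levels and overlap counts was added after seeing the data. The edgeR step was tested on simulated data. Pooled ratios carry 95% exact (Clopper-Pearson) intervals, and a group with no read was set to 3 reads; both cover counting error only. Sequences were not used here.

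Genes named are those with the most reads, with the highest and lowest 32 d, E2 and EM+E2 shares, with the smallest p per comparison, highest at 2 d, nearest each limit, or neighbours of each other, fewer where space required; the 6 genes below 1 CPM in a DMSO library were picked after their values were seen.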

Additional observations from a re-analysis of the deposited data

Results flagged for a closer look

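The normalized table lists genes that the raw table lacks, and it was not used for the main measurement. On its recovered reads, 9 further unnamed genes met the same limits. They summed to 2488 CPM in DMSO at 64 d, against 0.927 CPM in DMSO at 16 d and 1.68 CPM in EM at 64 d, and to 1517 CPM in E2 at 64 d, which the limits did not use. Of the 80 genes, 67 are in the normalized table.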

How the results depend on the processing

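The choice of genes depended on its limits and table. It gave 80 genes as reported, 99 with 10 CPM and 64 with 40 CPM in DMSO at 64 d, 61 with 0.25 CPM and 95 with 1 CPM in the low groups, 69 on the recovered reads (48 shared) and 71 to 84 without 1 library.

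Counts of calls among the 80 moved as follows, and the cause was not tested. The share of all genes called under each alternative is not given, so these counts show only how calling among the 80 depended on the setting. The number of the 80 tested could differ between settings too, since the filter was applied anew or left out. Where a group had 2 libraries, the range without 1 library includes fits that left 1 library in that group. A lone library holds no spread of its own, so no conclusion is drawn from the counts of those fits. EM against DMSO at 32 d (12) gave 23 with no filter, 2 with a minimum count of 30, 37 with all ages in 1 fit and 0 to 32 without 1 library. E2 against DMSO at 32 d (0) gave 15 by DESeq2, 3 with no filter, 30 with all ages and 0 to 32 without 1 library. EM+E2 against DMSO at 32 d (13) gave 23 with no filter, 2 with a minimum count of 30, 41 with all ages and 0 to 37 without 1 library. The interaction (0) gave 10 by DESeq2 and 0 to 2 without 1 library. EM+E2 against E2 at 64 d (0) gave 9 by DESeq2 and 0 to 78 without 1 library. DMSO 8 d against 2 d (0) gave 3 by DESeq2 and 0 to 1 without 1 library. E2 64 d against 32 d (66) gave 37 to 52 without 1 library. EM+E2 64 d against 32 d (19) gave 40 with no filter, 6 with a minimum count of 30 and 0 to 61 without 1 library. The median of EM+E2 replicate 2 was 15.4% of DMSO on TMM-scaled library sizes, against 15.6%.

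Replicate numbers were not taken to pair the libraries. Same-numbered libraries correlated above 0.1 in 5 of 18 cases at 32 d, 2 of 7 in DMSO, 11 of 26 in E2, 10 of 18 in EM and 2 of 22 in EM+E2 across ages, and in none of the compared pairs of groups did all. In EM at 8 and 16 d, which were not compared, all 3 did (0.25 to 0.59). With the replicate block the counts were 10 for EM, 2 for E2 and 8 for EM+E2 against DMSO at 32 d, 52 for E2 64 d against 32 d, 2 for EM+E2 64 d against 32 d, and 0 for the other 7 comparisons. The shares of all genes called with the block are not given, so these counts show only that calling depended on it. The log2 change of si:dkey-68o6.5 in EM from 16 to 32 d, 0.16, became -0.033 with the block, -0.40 without EM 16 d replicate 3 and -0.43 without EM 32 d replicate 2, and ranged from -0.43 to 1.04 without 1 library.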
